A study of Homo sapiens with 27 samples.

Results

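The genes described here are the small nucleolar and Cajal body RNAs of HL-60 cells, a line founded from human promyelocytic leukaemia. They were chosen by name and by abundance: the gene name starts with SNORA, SNORD or SCARNA, and the expected counts summed over the 5 RNA libraries reach 20. Of 847 genes with such names in the table of 58233 genes, 552 had 0 counts in all 5 libraries, 105 lay below 20, and 190 were kept. These comprise 93 H/ACA box genes (SNORA), 75 C/D box genes (SNORD) and 22 small Cajal body RNA genes (SCARNA). Just inside the limit lay SCARNA21 with 20 counts and SNORD93 and SNORA47 with 21 each, and just outside lay SNORD121B with 19.68 and SNORA13 with 19. The untreated nascent library supplied most of the counts, and without it 99 of the 190 would have reached the limit. Since the choice used the counts of all 5 libraries, the ratios below are descriptions.

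Each group was 1 library, so nothing could be tested against replicates and each ratio compares libraries. Total RNA and nascent RNA came from untreated cells. Nascent RNA, captured with a click-chemistry kit, was also sequenced after the vehicle DMSO, after 100 µM DRB, which blocks the kinase CDK9 and so the release of paused RNA polymerase II, and after 0.8 µM actinomycin D (ActD), an intercalator that blocks transcription. All DMSO, DRB and ActD cells were HL-60 with no further genetic change given in the labels. RNA immunoprecipitation (RIP) of the histone variant H2A.Z, its acetylated form (acH2A.Z) and the acetyltransferase Tip60 came from untreated cells, and chromatin immunoprecipitation (ChIP) of H2A.Z and acH2A.Z from cells given DMSO, DRB or ActD. How long the cells were exposed is not stated in those labels.

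The RNA libraries held between 12600067 (ActD) and 25167597 (untreated nascent) expected counts, so that 3 counts, used as the floor, equal 0.119 to 0.238 counts per 1000000 (CPM). The myeloid markers of the line were present, with MPO at 361 to 559 CPM and PRTN3 at 236 to 427 CPM in the 5 libraries, but ELANE was at 0 in 4 of them and at 0.159 CPM in untreated nascent RNA. Mitochondrial genes took 0.649% of total RNA counts and 0.56% of untreated nascent counts, but 45.9% with DMSO, 66.5% with DRB and 56.9% with ActD. Values in CPM in the last 3 libraries depend on these shares. Input DNA gave at most 46.0 counts over all the small RNA genes in 1 library, but the input libraries held only 440923 to 469547 counts. In CPM these genes summed to 87.2, 104 and 83.9 in input DNA of DMSO, DRB and ActD cells. In nascent RNA of the same treatments they summed to 103, 225 and 38 CPM. A SCARNA15 entry listed with 4325 bases held 39.5, 72.6 and 61.1 CPM of the input sums. The part of DNA in the RNA values was not tested.

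Small nucleolar RNAs guide chemical changes of other RNAs by base pairing. C/D box RNAs direct 2′-O-methylation by the protein fibrillarin, H/ACA box RNAs direct pseudouridylation by dyskerin, and small Cajal body RNAs do the same for spliceosomal RNAs. A few, among them U3 (the SNORD3 genes) and U8 (SNORD118), instead serve the cleavage of the ribosomal RNA precursor in the nucleolus. Most human members lie in introns of host genes, are released when the host intron is spliced and trimmed, and are protected by their proteins, while U3, U8 and U13 have promoters of their own.

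In RefSeq's annotation of GRCh38.p14, 184 of the 190 genes had a position. Of these, 172 lay within 116 host genes, 94 protein-coding and 22 long non-coding, where the host was the smallest such gene spanning the member and strand was not compared. A ribosomal protein name (RPL or RPS) was carried by 24 hosts, and 12 hosts held 3 or more members, among them TAF1D with 7, SNHG1 with 5, EIF4A2, NOP56, RPL13A and SNHG12 with 4 each, and EIF4A1, RPL17, RPL3, RPL7A and SNHG17 with 3 each. The starts of 4 of them are shown because the ChIP peaks described below lie at or near such starts. Each run covers 60 bases before and 20 bases from the annotated start (RefSeq, GRCh38.p14), 5′ to 3′ on the gene's own strand, and capitals mark a run of 5 or more C or T beginning with C within 5 bases of the start. Such pyrimidine runs are known from genes of the translation machinery.
TAF1D, chr11:93741476-93741555, minus strand: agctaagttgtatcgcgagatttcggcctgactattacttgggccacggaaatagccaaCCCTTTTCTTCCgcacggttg
RPL13A, chr19:49487548-49487627, plus strand: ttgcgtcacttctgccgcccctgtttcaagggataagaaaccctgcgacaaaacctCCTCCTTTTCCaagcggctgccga
RPL7A, chr9:133348158-133348237, plus strand: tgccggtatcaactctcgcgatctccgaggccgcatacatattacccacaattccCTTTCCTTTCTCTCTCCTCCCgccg
EIF4A1, chr17:7572765-7572844, plus strand: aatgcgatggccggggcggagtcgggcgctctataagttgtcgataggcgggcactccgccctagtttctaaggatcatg
The first 3 carry such a run and EIF4A1 does not. A run was found at 47 of the 96 hosts with a sequence (49.0%), against 6886 of 27305 genes in all (25.2%). Only the gene's own strand was searched.

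In untreated cells the small RNAs made up nearly the same share of total and of nascent RNA, but the proportions among them differed. In these bulk libraries fewer cells with an RNA and less of it per cell cannot be told apart. They summed to 10387 CPM in total RNA (1.04% of counts) and 10524 CPM in nascent RNA (1.05%). U3 dominated total RNA: the 4 SNORD3 genes held 7915 CPM there, 76.2% of the members' counts, and 4756 CPM in nascent RNA, 45.2%. The H/ACA genes together stood at 1231 CPM in total and 3794 CPM in nascent RNA, 3.08-fold higher (95% exact binomial interval 3.03 to 3.14, covering counting error only). The C/D genes without SNORD3 stood at 300 and 1223 CPM, 4.08-fold higher in nascent RNA (3.95 to 4.22). The Cajal body genes went the other way, from 942 CPM in total to 751 CPM in nascent RNA, 1.25-fold lower (1.23 to 1.28). This last difference depends on the scale, since its log2 ratio of −0.33 became 0.01 when centred on the median gene and −0.04 when rescaled to the genes left after mitochondrial genes, ribosomal RNA and RNA polymerase III transcripts were taken out.

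**Figure D1:**
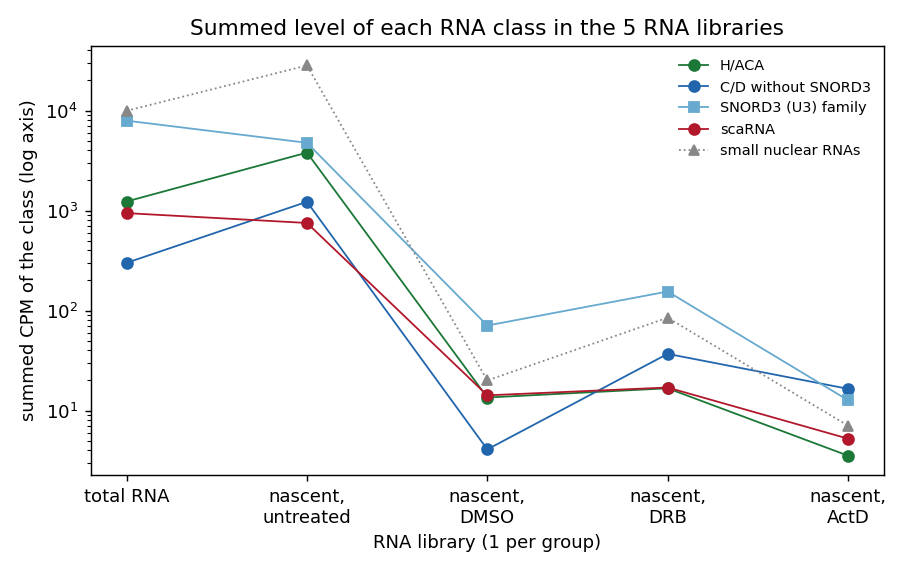
Summed CPM (log axis) of each class in the 5 RNA libraries, with the small nuclear RNAs for comparison; each point is 1 library and there are no error bars because there are no replicates. H/ACA genes stand at 1231 CPM in total and 3794 CPM in untreated nascent RNA, and every class falls to at most 192 CPM in the DMSO, DRB and ActD libraries.

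Most members are shorter than the fragments, and in the untreated nascent table the median effective length was 4.56 bases for C/D, 18.9 for H/ACA and 82.7 for SNORD3 genes, so levels per listed length compare genes only roughly. Per kilobase of listed length, SNORD3A led in total RNA with 32294 CPM per kilobase, followed by SNORD3B-2 with 2835, SNORD3B-1 with 988, SCARNA2 with 763 and SNORA74B with 684. In untreated nascent RNA SNORD3A again led with 18504 CPM per kilobase, followed by SNORA24 with 7233, SNORD3B-2 with 1846, SNORA7A with 1782 and SNORA73B with 1645. SNORA24, an H/ACA RNA in the long non-coding gene SNHG8, was not among the 5 highest in total RNA. By CPM alone, SCARNA10 at 141 was also among the 5 highest of total RNA.

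Gene by gene, 124 of the 190 members (65.3%) were at least 2-fold higher in nascent than in total RNA and 7 (3.68%) at least 2-fold lower. Of all genes that passed a mean of 1 CPM, 9.50% were higher and 17.8% lower by 2-fold (13988 genes). The members were in part chosen through the nascent library, since 99 of the 190 reach 20 counts without it. The all-gene shares were not chosen in that way, so the shares are not like for like. Other short genes leaned the same way: genes of under 100 bases were together 4.48-fold higher in nascent RNA (4.27 to 4.71) and those of 100 to 150 bases 3.45-fold (3.4 to 3.49). The mean fragment length implied by the tables was 164 bases in total and 140 in nascent RNA, and the effective length was 0 for 12 C/D genes in the total table and for 0 in the nascent one. The part of fragment length in the lean was not tested. The members' median log2 ratio, taken after adding 1 CPM, was 1.38 (quartiles 0.67 and 2.16), against −0.34 over all genes. Among H/ACA genes 59 were higher and 4 lower (median 1.45), among C/D genes 57 were higher and 0 lower (median 1.41), and among Cajal body genes 8 were higher and 3 lower (median 0.36, or −0.18 over those that passed the filter). The filter kept 153 members, of which 100 were higher and 7 lower. Small nuclear RNAs, the RNAs of the spliceosome, also leaned to nascent RNA, with 191 of 307 genes higher and 2 lower (median 1.23).

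By log2 ratio after adding 1 CPM, and among genes with at least 100 counts in the pair of libraries, the H/ACA genes that leaned most to nascent RNA were SNORA31 in TPT1, with 0.415 CPM in total and 23.1 CPM in nascent RNA (55.8-fold, 25 to 181), SNORA74A in SNHG4, with 0.158 and 16.8 CPM (106-fold, 29.2 to 881), and SNORA32 in TAF1D, with 0 and 12.8 CPM (at least 54.3-fold against the floor of the total library). The first pair belong to families of like copies among which reads can be split. Summed over the family, SNORA31 genes stood at 6.39 and 36.3 CPM and SNORA74 genes at 142 and 265 CPM. SNORA24 rose from 81.9 to 948 CPM (11.6-fold, 10.9 to 12.3) and SNORA7A from 28.7 to 248 CPM (8.62-fold, 7.76 to 9.62). On the other side, SNORA79 in CCNB1IP1 stood at 66.2 CPM in total and 23.6 CPM in nascent RNA (2.8-fold lower, 2.52 to 3.12), SNORA48 in EIF4A1 at 17.2 and 6.02 CPM (2.85-fold lower, 2.3 to 3.53) and SNORA65 in RPL12 at 64.8 and 28.4 CPM (2.28-fold lower, 2.06 to 2.52).

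C/D genes leaning strongly to nascent RNA included SNORD104 in SNHG25, with 1.66 CPM in total and 73.6 CPM in nascent RNA (44.4-fold, 29 to 71.9), and SNORD58A in RPL17, with 0.463 and 20.8 CPM (44.8-fold, 20 to 120). SNORD104 lies at chr17:64146078-64146157. Among C/D genes with at least 100 counts, the U3 genes were at the low end: SNORD3A stood 1.75-fold lower in nascent RNA (1.73 to 1.76), SNORD3B-2 1.54-fold lower (1.49 to 1.58) and SNORD3C 1.49-fold lower (1.15 to 1.92), while SNORD3B-1 stood 1.36-fold higher (1.3 to 1.42). These copies share reads, and their sum was 1.66-fold lower in nascent RNA (1.65 to 1.68).

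Among Cajal body RNAs the 2′-O-methylation guide SCARNA2, whose target is the U2 spliceosomal RNA, stood at 321 CPM in total and 152 CPM in nascent RNA (2.11-fold lower, 2.02 to 2.21), and SCARNA6 at 20.9 and 9.73 CPM (2.15-fold lower, 1.8 to 2.56). SCARNA18 in TMEM167A rose from 0.473 to 10.4 CPM (22.1-fold, 10.0 to 60.7), SCARNA16 in SNHG20 from 4.29 to 39.0 CPM (9.08-fold, 6.95 to 12.3) and SCARNA11 from 0.71 to 9.34 CPM (13.2-fold, 6.81 to 29.1). A pair of genes is named SCARNA4. The copy without a RefSeq position fell from 16.2 CPM to 0, at least 136-fold against the floor, while the other rose from 5.59 to 24.5 CPM. Their sum, 21.8 and 24.5 CPM, hardly moved, and the split of reads between such copies is uncertain.

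**Figure D2:**
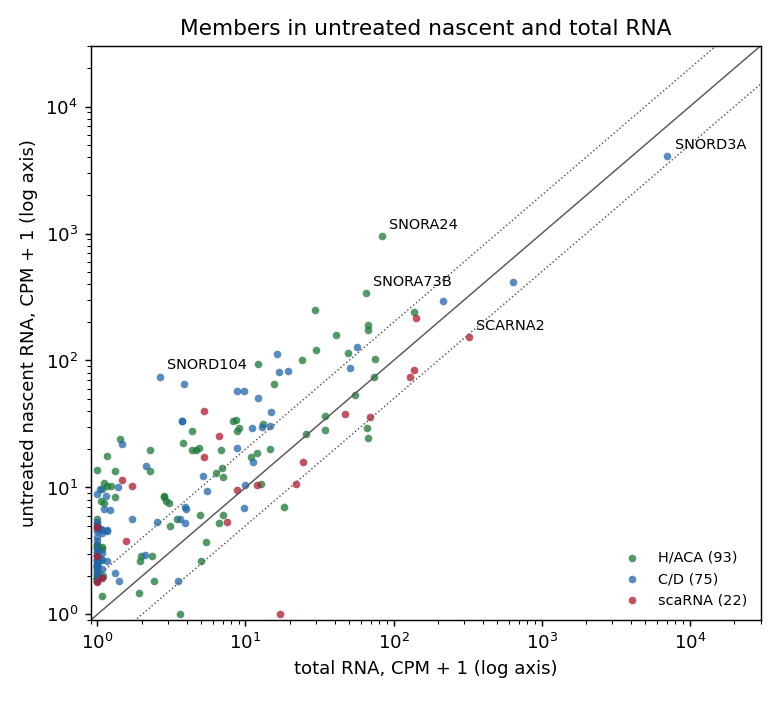
CPM + 1 of each of the 190 genes in total RNA (horizontal, log axis) and in untreated nascent RNA (vertical, log axis), coloured by class, 1 library on each axis. Most points lie above the diagonal of equal level, 124 of 190 by 2-fold or more, and the U3 genes SNORD3A and SNORD3B-2 lie below it.

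The lean to nascent RNA was not shared by the host genes. Of 108 hosts that passed the filter, 4 were 2-fold higher and 6 lower in nascent RNA (all genes 9.50% and 17.8%), with a median log2 ratio of −0.20. Their members, summed within each host, were 2-fold higher in 73 hosts and lower in 2, with a median of 1.39. The members, but not the hosts, were in part chosen through the nascent library. Across these 108 hosts, Pearson's r between the host's ratio and its members' was −0.01 and Spearman's rho 0.07, given as a description, since all points come from the same pair of libraries. RPSA, for example, a ribosomal protein gene, stood at 1309 CPM in total and 1050 CPM in nascent RNA, while its members SNORA62 and SNORA6 together stood at 77.1 and 284 CPM. RPL7A stood at 305 and 240 CPM, and its C/D members SNORD24, SNORD36A and SNORD36B together at 7.85 and 64.6 CPM.

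**Figure D3:**
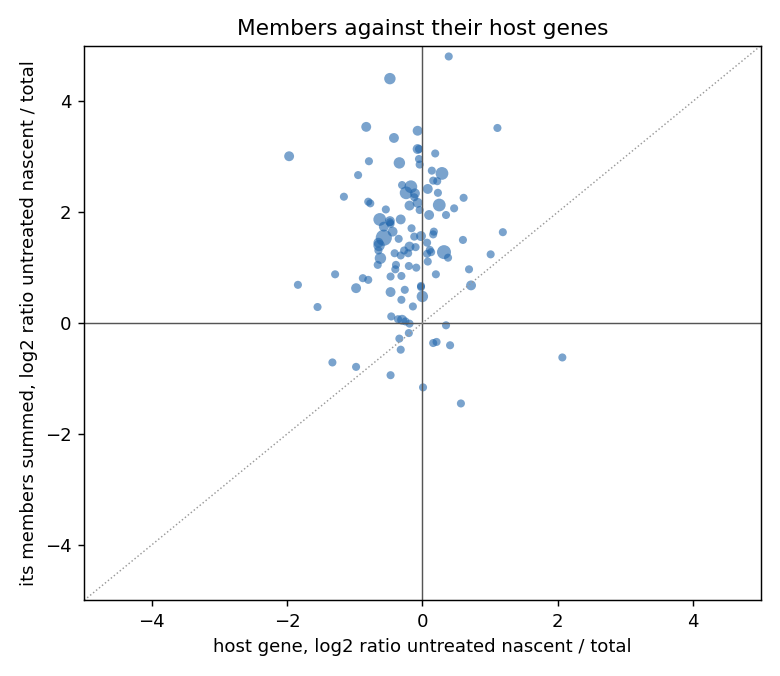
Log2 ratio of untreated nascent over total RNA for each host gene (horizontal) and for its members summed (vertical), with 1 CPM added, 1 point per host. The hosts lie around a median of −0.20 while the members' median is 1.39.

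Nearly all of these RNAs were missing from the nascent library of vehicle-treated cells. The 190 genes summed to 10524 CPM in untreated nascent RNA and to 103 CPM (1479.2 counts) under DMSO, 103-fold lower (97.5 to 108). Members above 0 numbered 188 in the untreated and 20 in the DMSO library, of which 14 had 3 or more counts. By 2-fold, 171 of 190 (90%) were lower and 2 higher, where 24.5% of 13714 genes were lower and 23.3% higher. Of the 146 members that passed the filter, 142 were lower and 2 higher. As the members were in part chosen through the untreated nascent library, these shares are not like for like. SNORA73B stood at 336 CPM untreated and at 0 under DMSO, at least 1614-fold lower against the floor. Against the same floor SNORA7A, from 248 CPM, was at least 1191-fold lower, SCARNA10, from 215 CPM, at least 1033-fold, SNORD22, from 126 CPM, at least 605-fold, and SNORD57, from 111 CPM, at least 534-fold. SNORD3 fell from 4756 to 70.8 CPM, 67.2-fold (63.1 to 71.5).

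The members that went against this were few. SCARNA15, listed with 4325 bases, stood at 2.76 CPM untreated and 6.83 CPM under DMSO (2.48-fold higher, 1.8 to 3.42). SCARNA9 stood at 4.34 and 6.52 CPM (1.5-fold higher, 1.13 to 2.0). SNORA2A stood at 0.397 and 2.15 CPM, and was the other gene past 2-fold. The long SCARNA15 entry stood at 39.5, 72.6 and 61.1 CPM in input DNA of DMSO, DRB and ActD cells, above its level in every RNA library. Whether its reads come from the small RNA was not tested. A second SCARNA15 entry, with a RefSeq position in SNHG21, stood at 0.0765 CPM in total and 0.944 CPM in untreated nascent RNA.

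Other small RNAs fell along with them, though not all to near absence. The 307 small nuclear RNA genes summed to 28224 CPM in untreated nascent RNA and 20 CPM under DMSO, with 259 of them lower by 2-fold. The 15 RNA polymerase III transcripts, which include the signal recognition particle RNA, took 51.8% of untreated nascent counts and 1.64% under DMSO. They were thus still present under DMSO, at 16411 CPM in sum. The host genes were present: their median log2 ratio of DMSO over untreated nascent RNA was −0.01. Of 108 hosts 27 were higher and 24 lower, where 23.3% of all genes were higher and 24.5% lower. The members summed per host had a median of −3.37, with 99 sums lower and 0 higher. Members above 0 under DMSO had a median listed length of 180 bases and those at 0 one of 131. The mean fragment length implied by the tables was 140 bases untreated and 177, 166 and 194 under DMSO, DRB and ActD. The part of fragment size and of library preparation in the loss was not tested. The effective length was listed as 0 for 52 members in the ActD table, 12 in DRB and 6 in DMSO, all of them C/D genes.

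Under DRB and ActD the members remained scarce, and values rested on few genes. Of 190, 155 had 0 counts in all 3 treated libraries. The members summed to 225 CPM under DRB, 2.2-fold above DMSO (2.07 to 2.34), and to 38 CPM under ActD, 2.7-fold below DMSO (2.43 to 3.0). The ActD value rests on U3: without the SNORD3 genes the sums were 31.7 CPM under DMSO and 25.3 under ActD, 1.25-fold lower (1.08 to 1.45), a log2 ratio of −0.33 that turned to 0.68 when centred and 0.07 when rescaled. With them it was −1.43, and −0.42 when centred. Those above 0 in all 3 were SCARNA15, SCARNA5, SCARNA9, SNORA24, SNORD10, SNORD27, SNORD3A, SNORD3B-1, SNORD3B-2 and SNORD97. A further 9 were above 0 only under DRB, 6 only under DMSO and 2 only under ActD. Both treated libraries are set against the same DMSO library, so the comparisons with DMSO are not independent.

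**Figure D4:**
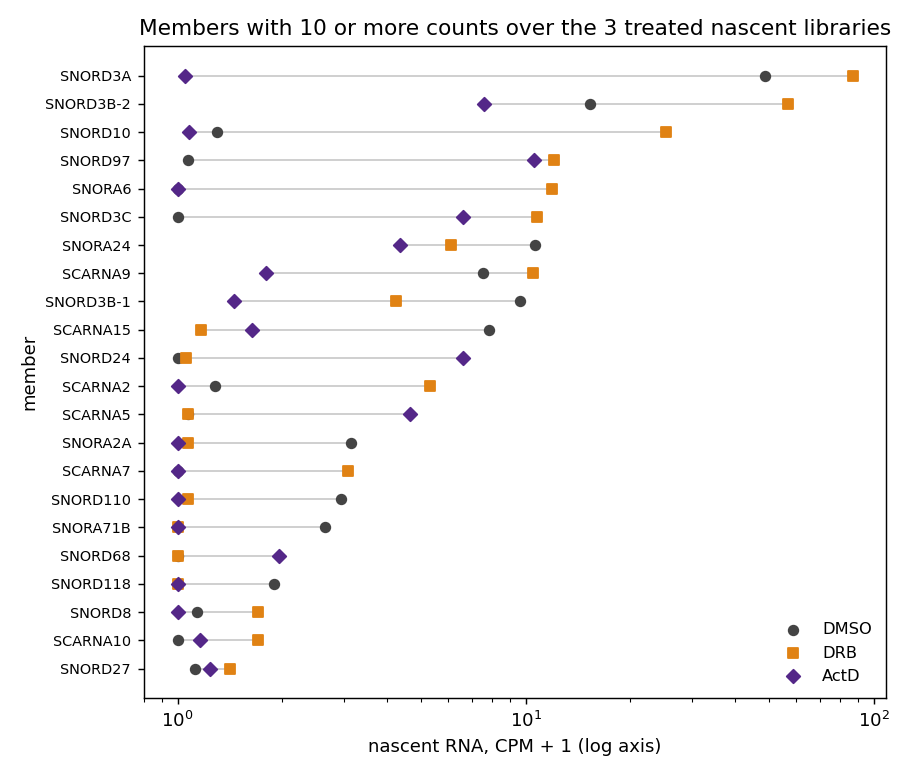
CPM + 1 (log axis) of the 22 members with at least 10 counts summed over the DMSO, DRB and ActD nascent libraries, 1 point per library. SNORD10 and SNORA6 are high only under DRB, SNORD24 and SCARNA5 only under ActD, and SNORD97 under both.

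The U3 genes held most of the signal under DMSO (69.1% of the members' counts) and DRB (68.7%). SNORD3A, at chr17:19188016-19188232, stood at 7053 CPM in total RNA, 4041 in untreated nascent RNA, 47.9 under DMSO, 86.1 under DRB and 0.0532 under ActD. SNORD3B-2 stood at 637, 415, 14.3, 55.7 and 6.59 CPM in the same order. SNORD3B-1 stood at 216, 294, 8.64, 3.24 and 0.456 CPM, and SNORD3C at 8.73, 5.87, 0, 9.80 and 5.60 CPM. The copies differ in which library is highest, but the split of reads among them is uncertain, and only the family sum is compared here. That sum was 2.19-fold higher under DRB than under DMSO (2.03 to 2.36), 5.58-fold lower under ActD than under DMSO (4.72 to 6.63) and 12.2-fold lower under ActD than under DRB (10.4 to 14.4). It kept these directions when the log2 ratio, with 1 CPM added, was centred or rescaled in the same ways: 1.12 became 2.30 and 1.87 for DRB, and −2.39 became −1.38 and −2.05 for ActD.

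Among all 190 members 7 were 2-fold higher under DRB than under DMSO and 5 lower, with 157 at 0 in both. Over all 12121 genes that passed the filter, 9.10% were higher and 54.7% lower, and the median log2 ratio was −1.19. Since the median gene fell, centring on it moves every member up by that amount. Of the 13 members that passed, 6 were higher and 2 lower. The filter took the mean over the DMSO, DRB and ActD libraries. Members at or near 0 under DMSO, such as SNORA6, SNORD10, SNORD3C and SNORD97, passed only through DRB or ActD. The filter thus in part set the count of those higher, which is no support for a rise.

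Beside SNORD3B-2 and SNORD3C, the higher members were 5 genes from all 3 classes. SNORD10, a C/D RNA at chr17:7576811-7576958 in the translation factor gene EIF4A1, stood at 50.1 CPM in total RNA, 85.6 in untreated nascent RNA, 0.295 under DMSO (4 counts), 24.3 under DRB (348 counts) and 0.0794 under ActD (1 count). It was 82.1-fold higher under DRB than under DMSO (33.9 to 323). EIF4A1 itself went from 401 CPM under DMSO to 125 CPM under DRB, so host and member moved in opposite directions. SNORA6, an H/ACA RNA at chr3:39408391-39408539 in RPSA, stood at 11.1, 93.0, 0, 10.9 and 0.00476 CPM in the same order, at least 52.4-fold higher under DRB than under DMSO, while RPSA stood at 520 CPM under DMSO and 400 CPM under DRB.

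SNORD97, at chr11:10801467-10801608 in the translation factor gene EIF4G2, was the only one of these 5 past 2-fold under both inhibitors. It stood at 13.7 CPM in total RNA, 29.4 in untreated nascent RNA, 0.0693 under DMSO (1 count), 11.1 under DRB (159 counts) and 9.60 under ActD (121 counts). The ratio was 160-fold for DRB (28.3 to 6358) and 139-fold for ActD (24.4 to 5517), with intervals this wide because of the single count under DMSO. EIF4G2 fell from 605 CPM under DMSO to 206 under DRB and 247 under ActD. Of the Cajal body RNAs, SCARNA2 stood at 0.277 CPM under DMSO, 4.32 under DRB and 0 under ActD, 15.6-fold higher under DRB than under DMSO (5.79 to 59), and SCARNA7 at 0, 2.09 and 0 CPM.

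The 5 members lower under DRB were SCARNA15, SNORA2A, SNORD110, SNORA71B and SNORD3B-1. The long SCARNA15 entry, which lay below its input DNA level in CPM in both libraries, fell from 6.83 to 0.167 CPM, 41-fold (13.1 to 408). SNORA2A stood at 2.15 CPM under DMSO and 0.0697 under DRB, SNORD110 at 1.94 and 0.0697, and SNORA71B at 1.66 and 0. SNORD3B-1, a U3 copy that shares reads, had a log2 ratio of −1.18, which became 0.0 when centred. All 5 were also lower under ActD than under DMSO, where SNORA2A, SNORD110 and SNORA71B were at 0 and SCARNA15 at 0.635 CPM.

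SNORA24, at chr4:118279190-118279320, held most of the H/ACA signal of the DMSO library. It stood at 81.9 CPM in total RNA, 948 in untreated nascent RNA, 9.65 under DMSO (139 counts), 5.09 under DRB (73 counts) and 3.37 under ActD (42 counts). It was 1.9-fold lower under DRB (1.42 to 2.55) and 2.86-fold lower under ActD (2.03 to 4.19). The direction for DRB turned with the scale, from a log2 ratio of −0.81 to 0.38 when centred on the median gene, and was −0.17 when rescaled. SNHG8, which overlaps it, stood at 43.9, 95.8, 5.74, 9.97 and 96.9 CPM in the same order, so under ActD the host was at its highest and the member at its lowest.

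By class, H/ACA genes summed to 13.5 CPM under DMSO, 16.7 under DRB and 3.54 under ActD. They were 1.24-fold higher under DRB (1.02 to 1.51) and 3.81-fold lower under ActD (2.71 to 5.33) than under DMSO. Without SNORA24 the H/ACA sums were 3.81, 11.6 and 0.163 CPM. C/D genes without SNORD3 summed to 4.09, 36.9 and 16.5 CPM, 9.03-fold higher under DRB (6.88 to 12) and 4.04-fold higher under ActD (3.01 to 5.49), which rests on SNORD10, SNORD97 and SNORD24. Cajal body genes summed to 14.2, 17.0 and 5.24 CPM, 1.2-fold higher under DRB (0.995 to 1.46) and 2.71-fold lower under ActD (2.04 to 3.62). These sums rest on few genes. SCARNA15, listed with 4325 bases and without a RefSeq position, held 6.83, 0.167 and 0.635 CPM of them. SCARNA9 held 6.52, 9.48 and 0.794 CPM, and SCARNA5 held 3.65 CPM under ActD. The class's log2 ratio of 0.27 for DRB became 1.46 when centred and 1.02 when rescaled, and −1.44 for ActD became −0.43 and −1.04. The H/ACA log2 ratio of 0.31 for DRB likewise became 1.5 and 1.06, and −1.93 for ActD became −0.92 and −1.53. Small nuclear RNAs moved as U3 did, 4.23-fold higher under DRB (3.72 to 4.83) and 2.84-fold lower under ActD.

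Between ActD and DMSO, 4 members were 2-fold higher and 9 lower, with 164 at 0 in both. Over all 12121 genes that passed the filter, 15.4% were higher and 50.1% lower, and the median log2 ratio was −1.01. Of the 13 members that passed, 4 were higher and 6 lower, with the same limit of the filter as for DRB. The 4 higher members were SNORD97, SNORD3C, SNORD24 and SCARNA5. SNORD24, a C/D RNA in RPL7A, stood at 7.79 CPM in total RNA, 56.8 in untreated nascent RNA, 0 under DMSO, 0.0565 under DRB and 5.63 under ActD (71 counts), and SCARNA5 at 4.26, 16.4, 0.0693, 0.0697 and 3.65 CPM. RPL7A stood at 108 CPM under DMSO, 92.6 under DRB and 177 under ActD. SCARNA9 stood at 6.52 CPM under DMSO, 9.48 under DRB and 0.794 under ActD, 8.21-fold lower under ActD than under DMSO (4.27 to 17.7).

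Set directly against each other, 2 members (SNORD24 and SCARNA5) were 2-fold higher under ActD than under DRB and 8 were lower, with 161 at 0 in both. Over all genes that passed the filter, 32.9% were higher and 26.9% lower. Of the 13 members that passed, 2 were higher and 7 lower. Among all 190, the 8 lower were SNORD3A, SNORD3B-1, SNORD3B-2, SNORD10, SNORA6, SCARNA2, SCARNA7 and SCARNA9. Per kilobase, the highest members under DRB were SNORD3A with 394, SNORD3B-2 with 248 and SNORD10 with 171 CPM per kilobase. Under ActD they were SNORD24 with 75.1, SNORD97 with 67.6 and SNORD3B-2 with 29.3.

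Members of the pre-rRNA processing list, other than U3, leaned to nascent RNA in untreated cells with 1 exception and were almost absent from the treated libraries. Of 35 genes of the list, 14 were members. Since members were in part chosen through the untreated nascent library, that choice in part set the lean. Over all 190 members 65.3% were at least 2-fold higher in nascent RNA. SNORD118, the U8 RNA needed for the large ribosomal subunit's RNAs, at chr17:8173452-8173588, stood at 15.8 CPM in total and 80.6 CPM in nascent RNA (5.09-fold, 4.4 to 5.91), 0.898 CPM under DMSO (13 counts) and 0 under DRB and ActD. SNORD22, needed for 18S RNA, stood at 55.5 and 126 CPM (2.27-fold, 2.09 to 2.46). The H/ACA RNAs SNORA73A and SNORA73B, forms of U17, stood at 66.7 and 172 CPM (2.58-fold, 2.39 to 2.78) and at 64.0 and 336 CPM (5.24-fold, 4.88 to 5.64). SNORA62 stood at 66.0 and 191 CPM (2.9-fold, 2.69 to 3.13).

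SNORA63 was the exception, with 4.01 CPM in total and 1.63 CPM in nascent RNA (2.45-fold lower, 1.6 to 3.82). Of the U14 genes, SNORD14C stood at 11.9 and 28.7 CPM (2.4-fold, 2.02 to 2.89), SNORD14B at 0 and 1.38 CPM, and SNORD14D at 0.0347 and 8.80 CPM. SNORD13, the U13 RNA, stood at 0 and 2.34 CPM. SNORD13, SNORD14B and SNORD14D became members through the nascent library alone, so the member rule set their direction. SNORD22 had 3 counts under DRB and SNORA73B 2 under ActD. Of the imprinted C/D clusters, whose genes are known mainly from neurons and placenta, all 134 genes were listed at 0 in all 5 libraries.

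Host genes stayed measurable where their small RNAs did not. Hosts at 1 CPM or more numbered 107 under DMSO, 94 under DRB and 100 under ActD, while hosts with any member above 0 numbered 12, 17 and 11. Hosted members amounted to 0.243 CPM per CPM of host in untreated nascent RNA, 0.000888 under DMSO, 0.00425 under DRB and 0.000861 under ActD. Under DRB the hosts' median log2 ratio to DMSO was −1.12, with 1 higher and 57 lower of 106, where 9.10% of all genes were higher and 54.7% lower. Under ActD it was −0.26, with 17 higher and 30 lower, where 15.4% of all genes were higher and 50.1% lower. Between ActD and DRB it was 1.11, with 55 higher and 10 lower, against 0.10 over all genes. In that comparison 32.9% of all genes were higher and 26.9% lower.

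Single hosts varied. TAF1D, which encodes a subunit of an RNA polymerase I factor and holds 7 members, stood at 87.0 CPM under DMSO, 13.5 under DRB and 95.2 under ActD, and none of its members had a count in these libraries. SNHG1, a long non-coding host of 5 C/D genes, stood at 31.2, 15.0 and 98.7 CPM, with its members at 0.123, 0.628 and 0.237 CPM in all. SNHG17 stood at 28.5, 3.91 and 1.43 CPM. Hosts whose start carried the pyrimidine run had a median log2 ratio of ActD over DMSO of 0.16, against −0.67 for hosts without it, and of ActD over DRB of 1.15, against 0.36. For DRB over DMSO the medians were −1.03 and −1.36. These medians describe 1 library per condition and were not tested.

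Genes for the proteins that assemble with these RNAs fell under DRB much as all genes did. Of 32 genes for core proteins, assembly factors and Cajal body factors, 31 passed the filter. Of these, 22 were 2-fold lower under DRB than under DMSO and 0 higher (median −1.33). Over all genes the median was −1.19, with 54.7% lower and 9.10% higher. NUFIP1, an assembly factor of C/D particles, stood at 21.5 and 0.488 CPM (log2 ratio −3.92) and MPHOSPH10, a U3 particle protein, at 91.0 and 7.39 CPM (−3.45). The count depends on the scale. Rescaled, NUFIP1 and MPHOSPH10 stayed past 2-fold at −4.03 and −2.82. The assembly gene RUVBL2 went from −1.71 to −0.99 and the core protein gene NOP56 from −1.25 to −0.50. PIH1D1, an assembly cofactor, stood at 18.2 and 25.1 CPM (0.44) and the H/ACA core protein gene NHP2 at 14.5 and 17.8 CPM (0.28).

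Under ActD 15 were lower than under DMSO and 1 higher (median −0.99), where 50.1% of all genes were lower and 15.4% higher. NUFIP1 stood at 0.317 CPM under ActD (−4.09) and the U3 protein gene RRP9 at 16.8 under DMSO and 0.397 CPM under ActD (−3.68). PIH1D1 stood at 47.4 CPM under ActD (1.33) and the exosome nuclease gene DIS3 at 91.2 under DMSO and 150 CPM under ActD (0.72). Between ActD and DRB 8 were higher and 4 lower (median 0.38), where 32.9% of all genes were higher and 26.9% lower. UTP3, a small-subunit processing factor, stood highest at 24.4 under DRB and 120 CPM under ActD (2.25), followed by DIS3 (2.13), and PARN, a deadenylase that trims H/ACA RNAs, lowest (−2.36), followed by RPAP3 (−1.85). In untreated cells 3 were higher and 2 lower in nascent than in total RNA (median −0.31), where 9.50% of all genes were higher and 17.8% lower. Among these factors NUFIP1 (1.72) and SMN1 (1.34) stood highest and GAR1 (−1.89) and SHQ1 (−1.03) lowest.

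The core protein genes differed among themselves. NOP56, which itself hosts 4 members, stood at 304 CPM under DMSO, 127 under DRB and 437 under ActD. FBL, the methyltransferase fibrillarin, stood at 143, 111 and 44.0 CPM, NOP58 at 103, 49.7 and 44.6 CPM, and DKC1, dyskerin, at 316, 165 and 171 CPM.

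In the RIP data, peaks of the H2A.Z list lay over 36 of the 184 positioned members (19.6%), peaks of the Tip60 list over 12 (6.52%) and peaks of the acH2A.Z list over 0. A member counted if at least 1 base was covered. Other genes of at most 500 bases lay under peaks in 7.24% (H2A.Z), 6.20% (acH2A.Z) and 6.94% (Tip60) of 677 cases. Among 206 small nucleolar or Cajal body genes with 0 counts in every RNA library the shares were 2.43%, 3.88% and 7.28%. The acH2A.Z list was the longest, with 264469 peaks over 194 megabases, against 99234 over 59.0 for H2A.Z and 249628 over 185 for Tip60, and held none over a member. Which library served as the control in these lists was not given, and its part in these counts was not tested.

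**Figure D5:**
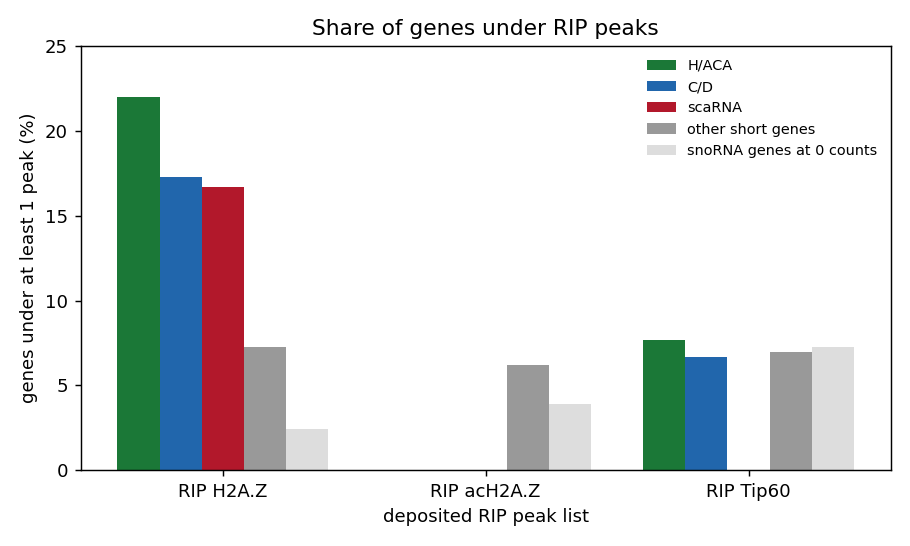
Percent of genes under at least 1 peak of the H2A.Z, acH2A.Z and Tip60 RIP lists (vertical axis from 0), for the 3 classes, other short genes and snoRNA genes with 0 counts. H2A.Z bars reach 22.0%, 17.3% and 16.7% in the H/ACA, C/D and Cajal body classes, and the acH2A.Z share is 0 in all 3.

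By class, the H2A.Z peaks lay over 20 of 91 H/ACA, 13 of 75 C/D and 3 of 18 Cajal body genes, and the Tip60 peaks over 7, 5 and 0. Of the bases within members, 19% were covered by H2A.Z peaks, 0 by acH2A.Z and 5.72% by Tip60, where the bodies of the hosts were covered to 4.37%, 4.08% and 7.10%. Members under an H2A.Z peak had a median of 14.9 CPM in untreated nascent RNA and those not under one 5.07 CPM. The ranges overlapped, from 0.795 to 4041 CPM under a peak and from 0.397 to 948 CPM not under one. For Tip60 the medians were 6.92 and 7.75 CPM. The authors' fold over control ran from 4.04 to 30.1 over the H2A.Z peaks on members (median 5.39) and from 4.23 to 78.96 over the Tip60 peaks (median 6.62).

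The best-scoring H2A.Z peak over a member covered SNORD3A, at chr17:19187887-19188387, with 525.6 normalized tags and a fold over control of 6.37. It ranked 6 by score in the whole list. SNORA65 in RPL12, at chr9:127448502-127448637, followed with 466.1 tags and a fold of 4.75 (rank 7), then SNORA73B with 71.7 tags and a fold of 4.3 (rank 13), SNORA70 in RPL10 with 23.8 tags and a fold of 11.23, and SNORD17 in SNX5 with 45.5 tags and a fold of 6.61. For Tip60 the best was SNORA5C in TBRG4, with 232.3 tags and a fold of 4.23 (rank 19). Others among the best-scoring over members had few tags. SNORA71C had 9.12 tags and a fold of 7.01 (rank 7576), and SNORD88C 10.6 tags and a fold of 5.47 (rank 14770). SNORD13 had 6.41 tags and a fold of 12.59 (rank 33752), which rests on 3.5 control tags.

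The 36 members under H2A.Z peaks lay under 29 peaks, since neighbours in a host shared them. SNORD25, SNORD26 and SNORD27 shared 1 peak in SNHG1 (fold 9.19), SNORD33, SNORD34 and SNORD35A 1 in RPL13A (5.39), SNORA5A and SNORA5C 1 in TBRG4 (6.1), and SNORD56 and SNORD57 1 in NOP56 (4.04). SNORA5C and SNORD88C lay under peaks of both H2A.Z and Tip60, and 138 members lay under none.

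On chromatin, peaks of acetylated H2A.Z lay at or near the starts of nearly all host genes in each treatment. A peak counted as over a start if it touched any base of a promoter sequence of the gene. That sequence also holds bases upstream, so the peak need not cover the start itself. Peaks of acH2A.Z lay over the start of 94 of 96 hosts under DMSO (97.9%), 94 under DRB (97.9%) and 90 under ActD (93.8%), where 36.5%, 41.8% and 32.4% of 27305 genes had one. Peaks of H2A.Z lay over 31 host starts under DMSO (32.3%), 32 under DRB (33.3%) and 14 under ActD (14.6%), where 3.56%, 7.55% and 2.47% of all genes had one. The hosts were not matched to other genes on expression, so these shares say nothing particular to hosts. The lists were called per library and differ in length.

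The genes with promoters of their own were read within 500 bases. SNORD118, SCARNA2 and SNORD13 had an acH2A.Z peak in all 3 treatments. The U3 genes had none under DMSO. Under DRB SNORD3A and SNORD3B-2 had a peak, and under ActD SNORD3A, SNORD3B-2 and SNORD3B-1. These lists were called separately and the scale of their tags is not given, so heights are not compared between treatments. Within the DRB list the U3 peaks were low, with 12 normalized tags at SNORD3A and 12.7 at SNORD3B-2 against 351.0 at SNORD118. No H2A.Z peak lay within this distance of any of them in these 3 treatments.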

How the data were processed

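Gene tables of 5 RNA libraries and 3 input DNA libraries and peak lists of RIP and ChIP were used. STAR 2.5.2b, HOMER, cutadapt, Trim Galore and FastQC are named in the submitters' processing notes, with GRCh38 as the build. For the gene tables, quantifier, annotation and use of strand are not given in the sources used here. The authors deposited expected counts per gene with lengths, and these were used as estimated counts of reads. TPM and FPKM stand in the deposited tables too and were left aside. Per the file headers, each peak has a normalized tag count (a signal value whose scale is not given), a score and a ratio, the fold over control, which serve here for order and limits inside 1 list alone. Deposited p-values of the peaks were not used. The authors called peaks per library. Libraries with control IgG were not analysed here.

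Counts were divided by the table's sum to give CPM, and log2 ratios were taken after adding 1 CPM. Genes of a comparison were kept if their counts summed to 20 or more and their mean reached 1 CPM. A member counted as higher or lower at 2-fold, a rule of size. Folds without the pseudocount carry exact (Clopper-Pearson) 95% binomial intervals on rounded counts. Without molecular identifiers, reads are not independent molecules, so intervals and the floor of 3 counts cover counting error alone. Tools were Python 3.11.15, pandas 2.3.3, NumPy 2.4.6, SciPy 1.17.1 and matplotlib 3.10.9. The ratio step was tested on simulated counts of genes expected at 20 or more counts in the smaller library. That test does not cover the scarce members of the DMSO, DRB and ActD libraries. Positions, hosts and start sequences came from RefSeq (GRCh38.p14).

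The members, lists and tests were chosen with earlier results of these data known. Named members were up to 3 highest and 3 lowest by log2 ratio per comparison and class among those with at least 100 counts, the 5 highest by CPM per library, all members of the lists of independently transcribed and pre-rRNA processing RNAs, the 5 best peaks per RIP list, up to 2 highest and 2 lowest of the assembly factor list per comparison, and hosts with at least 3 members. An item that this rule names is not reported here. Other members named, such as those that make up small counts and the host examples, were chosen after their values were seen. The alternatives are another scale, pseudocount, filter, member minimum, summed families and peak limit.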

Additional observations from a re-analysis of the deposited data

How the results depend on the processing

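Of 163 alternative values over 25 results, 105 stayed within the spread allowed or within 1.5 times the count. For a class median, the spread allowed came from the counting interval of the class sum, and is not the spread of the median. Many of the 105 are class medians that stayed at 0 because most members were at 0 in both libraries. Their outcome was fixed in advance, so the 105 do not measure stability. A turned direction could be marked only for a class median of at least 1 in size. That held only for the C/D (1.41) and H/ACA (1.45) medians of nascent over total RNA, and neither turned. The Cajal body median of 0.36 changed sign, as given below. The class medians over all members were 0 in the comparisons with DMSO and between ActD and DRB, because most members were at 0 in both libraries. By construction, centring on the median gene then set them to 1.19 for DRB over DMSO and 1.01 for ActD over DMSO in C/D, H/ACA and Cajal body genes alike, and raised the members higher to 181 under DRB and 173 under ActD, with 1 and 4 lower.

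Over members that passed the filter on low values, the medians for DRB over DMSO were 1.89 (C/D) and 1.38 (H/ACA). For ActD over DMSO they were −0.26 (C/D), −0.64 (H/ACA) and −1.21 (Cajal body). For ActD over DRB they were −1.54, −2.02 and −0.96. Because the filter admits members scarce under DMSO that are high under DRB or ActD, it in part sets these medians. Each H/ACA value rests on 2 genes, each Cajal body value on 4 and each C/D value on 7, and under DRB the H/ACA pair, SNORA24 (−0.81) and SNORA6 (3.57), went opposite ways. Over members with a count in either library, an alternative chosen after seeing the data, the medians were 0.27 (C/D, DRB over DMSO), −0.26 (C/D, ActD over DMSO), −1.28 (H/ACA, ActD over DMSO) and −0.24 (C/D, ActD over DRB).

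For nascent over total RNA the C/D median of 1.41 became 1.75 centred, 2.23 rescaled, 3.52 with a pseudocount of 0.1 CPM, 1.98 with the filter, 1.71 with a member minimum of 100 counts and 1.56 with families summed. The H/ACA median of 1.45 became 1.79, 2.02, 2.13, 1.64, 1.65 and 1.54 in the same order. The Cajal body median of 0.36 became 0.70 centred, 0.64 rescaled and 0.21 with families summed, and was −0.18 with the filter and −0.25 with the minimum of 100 counts, so its sign depends on the scarce members.

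With the pseudocount of 0.1 CPM, members higher numbered 15 and lower 8 for DRB over DMSO, 7 and 15 for ActD over DMSO, and 5 and 15 for ActD over DRB. Rescaled, 11 were higher under DRB than under DMSO. With the filter 2 and with the minimum of 100 counts 3 were lower under DRB. Members higher in nascent than in total RNA numbered 78 with that minimum, and those lower numbered 4 centred, 4 rescaled and 4 with families summed. Members higher under DMSO than in untreated nascent RNA numbered 1 rescaled, 1 with the minimum and 0 with families summed. Peaks with a fold over control of at least 8 covered 7 members for H2A.Z and 5 for Tip60, and with the minimum of 100 counts 7 members lay under Tip60 peaks. Apart from shifts set by construction and by fewer members, the cause of these changes was not tested.

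No paired analysis was possible because each group holds 1 library, and none was left out. The floor of 3 counts lay at 0.119 CPM in untreated nascent RNA and at 0.208 (DMSO) to 0.238 CPM (ActD) in the other RNA libraries. It sets no bound for C/D genes listed with an effective length of 0.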
